A study of Mus musculus with 18 samples.

Results

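The dense clusters described here are stretches of the mouse autosomes in which listed regions of H3K27me3, trimethylation of histone H3 at lysine 27, stood close together. The list compares Notch1-IC-driven T cell acute lymphoblastic leukaemia (T-ALL) with normal CD4+ CD8+ double-positive (DP) thymocytes. Regions of both display colours were chained where the next began 5 kb or less after the previous one ended, and chains of 10 or more regions were kept. This gave 326 clusters with 5066 regions, 22.4% of the 22579 autosomal regions and part of the 22682 regions of the whole list. The members were thus chosen by the measured positions of the regions, so their number and spacing are a description and not a result. Their colour, and what the lists of the other marks and of Notch1 hold at the same places, did not enter the choice.

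The H3K27me3 list rests on 2 T-ALL libraries and 2 DP libraries of chromatin immunoprecipitation sequencing (ChIP-seq). The T-ALL cells are tumours that overexpress Notch1-IC, the intracellular form of Notch1 that acts as a transcriptional activator. The DP cells come from normal thymus. The T-ALL and DP cells also have 2 libraries each for H3K4me3, for H3K9ac and for input cut with micrococcal nuclease, and T-ALL has 1 library of Notch1 and 1 of sonicated input. The labels leave out which promoter or vector drove Notch1-IC, how many tumours or thymuses gave each library, and whether the replicates are separate animals. A region is either green or red, and no label or header states whether green or red stands for the higher level in T-ALL. The lists give neither a fold change nor a depth nor a value per library, so the depth behind each region is unknown, no spread between replicates can be given, and no test between T-ALL and DP was made. Regions of a cluster lie side by side and are not replicates, so the 95% intervals given for shares (Clopper-Pearson) reflect counting error alone, and differences between sets of regions are described without a test. Where intervals are said to overlap, this is likewise no test and does not show that the shares are equal.

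H3K27me3 is written by Polycomb repressive complex 2 and read by Polycomb repressive complex 1, and marks genes kept silent. Dense and broad domains of the mark are best known over genes of developmental regulators, among them the Hox genes, which set positional identity along the body axis. In T-ALL the activity of Notch1 and that of Polycomb repressive complex 2 have been studied as opposing influences. H3K4me3 and H3K9ac mark active promoters and regulatory elements, and H3K4me3 is also found together with H3K27me3 at some silent promoters. The list holds only H3K27me3 regions and no Polycomb protein, so the name Polycomb cluster rests on the mark alone.

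Most dense clusters were short, and a few were very long. A cluster held a median of 13 regions (quartiles 11 and 17) and spanned a median of 23.9 kb (quartiles 19.4 and 32.4 kb). There were 203 clusters of 10 to 14 regions, 78 of 15 to 19 and 45 of 20 or more, and only 4 held 50 or more. Listed regions covered 4.31 Mb of the 9.24 Mb spanned, 46.6%, with the single clusters between 29.9% and 73.9%. The clusters lay on all 19 autosomes, with 44 each on chromosomes 2 and 11, which together held 26.2% of the members. Members made up between 10.2% of the H3K27me3 regions of chromosome 18 and 31.5% of those of chromosome 19. The sex chromosomes had no dense cluster, and the longest chain there had 6 of their 103 regions. The next cluster on the same chromosome began within 10 kb in 14 cases, so some neighbouring clusters are separated by little more than the 5 kb that links regions. At the threshold, the 62 chains of 10 regions were 51.5% green with a median width of 675 bp for green and 725 bp for red regions, and the 69 chains of 9 regions just outside were 47.3% green with medians of 625 bp for green and 725 bp for red. The chains of 11 regions were 48.4% green and those of 8 regions 53.1%, and the green share was thus not ordered by chain length around the threshold.

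The cluster with most regions lay at chr15:102735201-102980775 (mm9 build) and held 103 green and 32 red regions over 246 kb. Its colours changed 46 times along its length, and its longest red run was 3 regions. The second, at chr6:52097776-52286725, held 67 green and 43 red regions over 189 kb, with 52 colour changes. The third, at chr2:74482001-74623475, held 54 green and 29 red regions over 141 kb. The fourth, at chr11:96098876-96188800, held 33 green and 19 red regions over 89.9 kb. Green was the more frequent colour in each of these 4, and all 4 began and ended with a green region.

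The next 6 clusters held 30 to 49 regions. The fifth, at chr3:87996251-88066525, held 33 green and 16 red regions. The sixth, at chr19:44791351-44861650, held 20 green and 15 red, and the seventh, at chr9:91248776-91302325, held 25 green and 9 red. The eighth, at chr2:33460301-33513450, was the only 1 of the 10 with more red than green regions, at 15 green and 17 red. The ninth, at chr11:96022476-96083075, held 30 green and 2 red regions, and 18 green regions followed each other without a red one between them. The tenth, at chr7:86640226-86692875, held 19 green and 11 red. It tied at 30 regions with chr11:96194451-96247200, which also held 19 green and 11 red and was ranked after it by chromosome number. Over the 10 clusters 399 of 592 regions were green, 67.4% (63.5 to 71.2), against 51.6% (50.1 to 53.1) over the other 316 clusters.

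**Figure D1:**
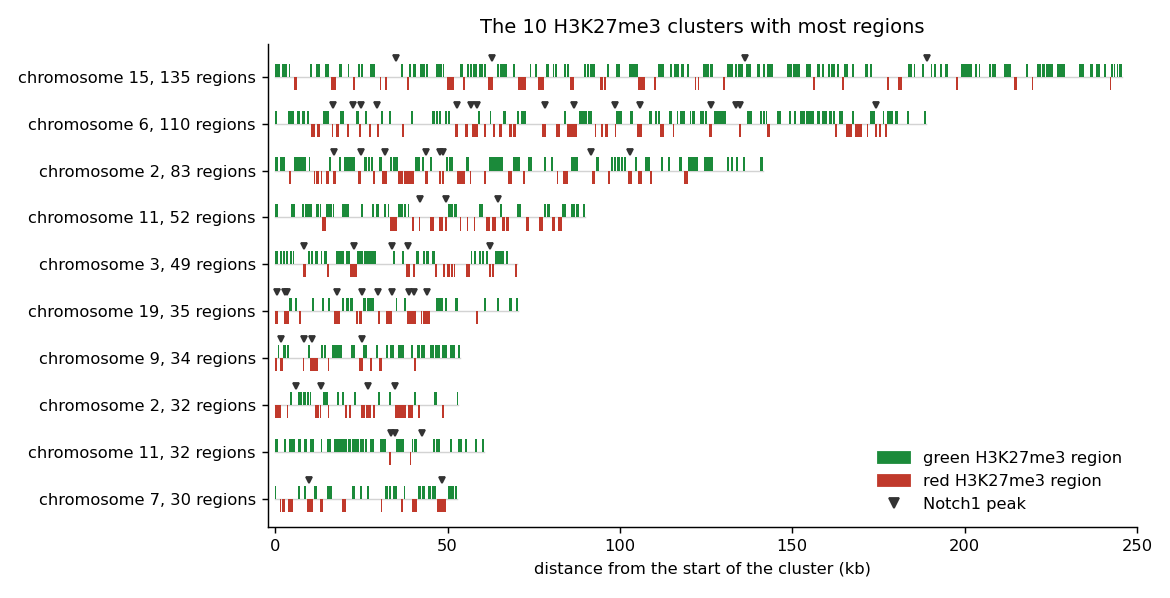
Map of the 10 clusters with most regions, each drawn from its own start (distance in kb), with green regions above the line, red regions below it and triangles at Notch1 peak centres. Both colours occur along each cluster, in runs and singly, while the ninth row, on chromosome 11, is nearly all green with 2 red regions.

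The ninth and the fourth cluster were neighbours on chromosome 11, and the eleventh followed them. The 3 clusters stood 15.8 kb and 5.65 kb apart and made up the stretch chr11:96022476-96247200, which was singled out after its values were seen. Together they held 82 green and 32 red regions. As background, the mouse Hox genes lie in 4 groups, Hoxa on chromosome 6, Hoxb on chromosome 11, Hoxc on chromosome 15 and Hoxd on chromosome 2, in the RefSeq gene table of the GRCm38 build. These are the chromosomes of the 4 largest clusters. The gene table is on another build than the lists, so no cluster was assigned to a gene, exon, intron or promoter, and a shared chromosome does not place a cluster at a Hox gene.

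Green regions were more frequent in dense clusters than among the other autosomal regions. Of all autosomal H3K27me3 regions 42.8% were green. Members were green in 2707 cases and red in 2359, so that green made up 53.4% (52.0 to 54.8), against 39.7% of the 17513 other autosomal regions. Put the other way, 28.0% of all green autosomal regions (27.1 to 28.9) and 18.3% of all red ones (17.6 to 18.9) lay in a dense cluster. The green share was higher in members than in the other regions on each of the 19 autosomes, by 1.52 percentage points on chromosome 16 and by 19.5 on chromosome 15, with the other chromosomes between. Leaving out each chromosome in turn kept the share between 52.6% and 54.0% in members and between 39.2% and 40.4% in the others.

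The difference in colour did not set in at 10 regions. Regions with no neighbour within 5 kb were 21.9% green (20.7 to 23.2), and chains of 2 to 3 regions were 39.1% green. Chains of 4 to 5 regions had already reached 51.0%, and chains of 6 to 9 stood at 48.6%. Within the dense clusters the share was 51.2% (49.1 to 53.2) at 10 to 14 regions and 49.4% (46.7 to 52.2) at 15 to 19, both near the chains of 4 to 9. Clusters of 20 or more regions stood higher, at 60.8% (58.2 to 63.3). The low share among the other regions thus came mainly with the isolated regions and the chains of 2 to 3, and among dense clusters the high share came with the longest ones.

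**Figure D2:**
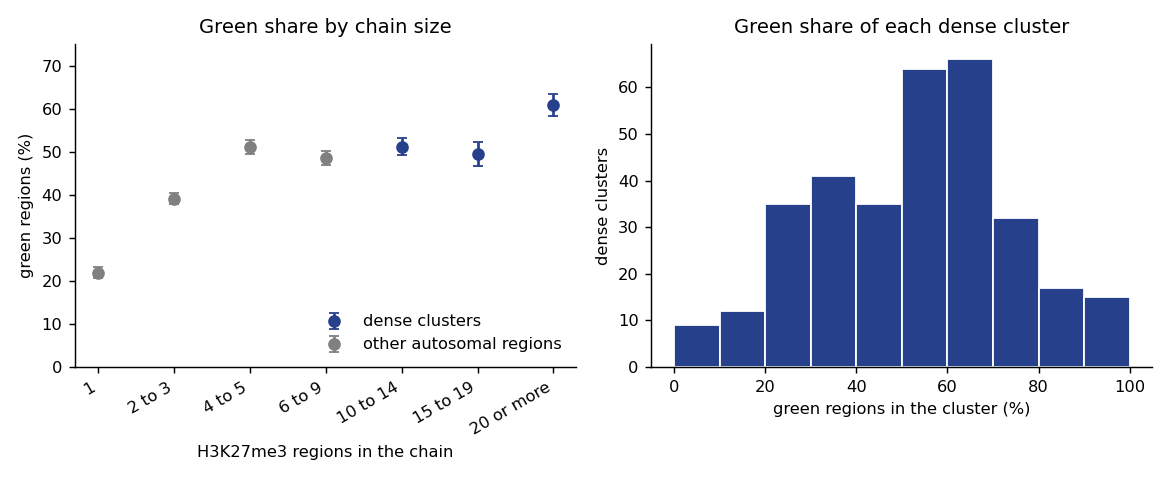
Left, percent of green regions by the number of H3K27me3 regions in the chain, with 95% Clopper-Pearson intervals; blue points are dense clusters and grey points other autosomal regions. The share is 21.9% for isolated regions, near 50% from 4 to 19 regions and 60.8% from 20 regions on. Right, number of dense clusters by their own percent of green regions in steps of 10; clusters are spread over the whole range and most lie between 20 and 80%.

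Few clusters were of a single colour. Of the 326 clusters 320 held both colours, 3 were all green and 3 all red. The green share of a cluster had a median of 54.5% (quartiles 35.7 and 66.7%). Green was the more frequent colour in 180 clusters and red in 132, and 14 were even. There were 246 clusters between 25 and 75% green, 41 with 75% or more and 39 with 25% or less. Most dense clusters were thus listed in both colours, whichever cell type each colour stands for. The chaining rule pooled both colours and kept long chains only, and the pooled green share of members was 53.4%. With a mix so near even, long single-colour chains would be rare if colours fell at random. The number of clusters with both colours is therefore largely built in. Whether single-colour clusters were more or less frequent than the mix alone would give was not tested. With each cluster counted once the mean green share was 51.7%, so the pooled 53.4% leans on the longest clusters.

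The 3 all-green clusters were small next to the largest ones. The longest, at chr13:21328351-21372125, held 20 green regions over 43.8 kb and no Notch1 peak or H3K4me3 region, and it was the run of a single colour with most regions in any dense cluster. The second, at chr11:120080101-120109625, held 12 green regions with 2 Notch1 peaks and 3 red H3K4me3 regions. The third, at chr19:43644376-43663925, held 11 green regions and nothing from the other lists. The all-red clusters were chr12:112638876-112694925 with 18 regions, chr4:151645301-151667850 with 13 and chr7:19649651-19684600 with 12. The one on chromosome 12 had fewer regions than the all-green run on chromosome 13 but was longer in bases, at 56.05 kb. These 3 held 3, 2 and 6 Notch1 peaks in that order, and each held 1 or 2 H3K4me3 regions. Of the 14 clusters with equal numbers of both colours, the 3 with most regions were chr5:148104376-148133800, with 10 of each colour and 12 colour changes, chr13:55920176-55951275, with 7 of each and 8 changes, and chr19:44956676-44986675, with 7 of each and 9 changes.

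Neighbouring members shared their colour somewhat more often than not. Over all linked neighbours on the autosomes the share of pairs of 1 colour was 57.9%. Inside dense clusters it was 58.9% (57.5 to 60.3) of 4740 pairs, against 57.4% (56.4 to 58.4) of 9527 pairs in chains of 2 to 9 regions. Among all pairs of regions of the same cluster, neighbours or not, 56.6% had 1 colour. Averaged over clusters, the share was 58.6% for neighbours and 55.7% for all pairs, and it was higher for neighbours in 180 of 326 clusters and lower in 137. Neighbours thus matched only slightly more often than any 2 regions of the same cluster. Single-colour runs were short. Of 1162 green runs 528 were single regions and 124 held 5 or more, and of 1112 red runs 568 were single regions and 103 held 5 or more.

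Neighbours of different colour stood at a preferred spacing. In dense clusters the share of pairs with different colours lay between 34.5% and 39.8% for the 4 classes of gaps below 1000 bp. It was 62.5% (58.6 to 66.2) for gaps of 1000 to 1225 bp, and between 35.3% and 44.8% for the 4 classes of longer gaps. The pile-up began sharply. At a gap of 975 bp there were 17 pairs of different and 15 of the same colour, and at 1000 bp there were 58 of different and 29 of the same colour. Gaps of 1000 to 1225 bp made up 20.9% of all pairs of different colour, 6.80% of green pairs and 11.2% of red pairs. The pattern was not limited to dense clusters, since chains of 2 to 9 regions had 65.3% (62.6 to 67.9) of different colour at the same gaps. Positions lie on a grid of 25 bp, and how the caller sets the distance between regions is not given, so the part of the calling procedure in this spacing was not tested.

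**Figure D3:**
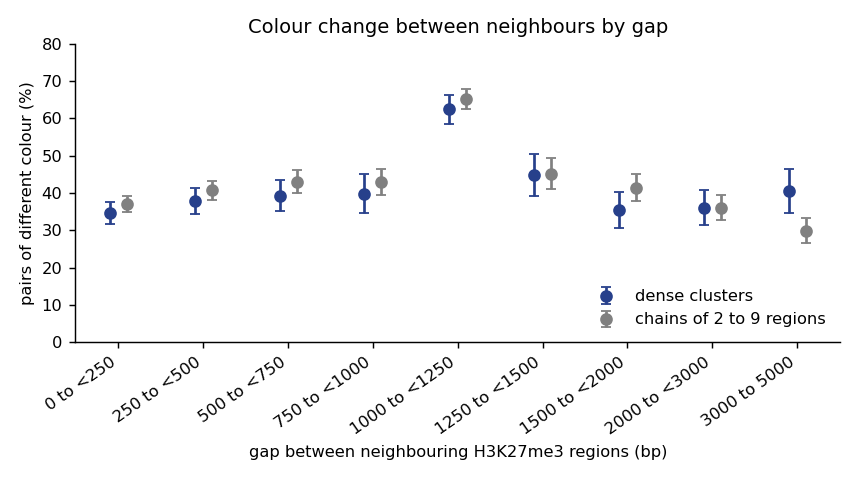
Percent of neighbouring H3K27me3 regions that differ in colour, by the gap between them in bp, with 95% Clopper-Pearson intervals; blue points are dense clusters and grey points chains of 2 to 9 regions. Both sets rise above 60% at gaps of 1000 to just under 1250 bp and stay at or below 45.2% at all other gaps.

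The ends of dense clusters were somewhat greener than their insides. Of the first and last regions 57.7% (53.8 to 61.5) were green, against 52.8% (51.3 to 54.3) of the regions between them, and the intervals overlapped. In chains of 3 to 9 regions the values were 53.7% (52.3 to 55.2) at the ends and 43.5% (42.2 to 44.8) inside. End regions were also narrower, with a median of 675 bp at the ends and 725 bp inside dense clusters. In chains of 3 to 9 regions the medians were 675 and 750 bp, so neither difference was particular to dense clusters.

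Widths of members were close to those of other regions, and broad green regions were more frequent in dense clusters. The median width was 725 bp in members and 700 bp in other autosomal regions. Green members had a median of 700 bp (quartiles 550 and 925 bp), against 650 bp (525 and 850 bp) for other green regions. Red members and other red regions both had a median of 750 bp. Regions of 1500 bp or more made up 6.91% (5.98 to 7.93) of green members and 3.15% (2.75 to 3.58) of other green regions. Among red regions they made up 13.4% (12.0 to 14.8) of members and 11.3% (10.7 to 11.9) of the others. At the other extreme, regions below 500 bp made up 13.3% of red members and 6.18% of other red regions, and 6.58% of green members and 5.39% of other green regions. Width and spacing both enter the chaining rule, so these values are a description.

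The widest green members were 3450 to 4500 bp wide and the widest red ones 3675 to 4100 bp. The 5 widest green members were chr14:63879126-63883625, chr11:69594826-69599075, chr11:120087226-120091325, chr19:59522176-59525725 and chr2:152771826-152775275. None of these 5 shared a base with a region of another list. The widest red member, at chr12:112665926-112670025 in the all-red cluster there, met 1 green H3K4me3 region. The next, at chr12:57633751-57637650, lay in a cluster of 9 green and 3 red regions and met no other list. The third, at chr15:98620001-98623725, held 3 Notch1 peaks. The fourth, at chr10:42301451-42305125, held 1 Notch1 peak, and the fifth, at chr19:45303501-45307175, held none.

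Most dense clusters held a Notch1 peak, mainly on red regions, but members met peaks less often than other regions when both colours were pooled. The cluster spans held 614 Notch1 peaks, and 253 of 326 clusters (77.6%) held at least 1. Each cluster has 10 or more regions, so this share of clusters is no sign of enrichment. Of the 5066 members 556 (10.975%) met a peak, against 2754 (15.725%) of the 17513 other autosomal regions. Members are greener, so part of this difference follows from the colour mix, and the colours are given apart below. Of the 614 peaks 532 (86.6%, 83.7 to 89.2) shared bases with red regions only and 22 with green regions only. A further 9 met both colours and 51 lay in the gaps. Green and red regions cover nearly equal parts of the spans, 23.5% and 23.1%, so the space open to a peak was about the same in both colours. Among chains of 2 to 9 regions 90.3% (89.0 to 91.6) of 2068 peaks met red regions only. Per megabase of span there were 66.4 peaks in dense clusters and 94.9 in chains of 2 to 9. Over all regions outside dense clusters, red covered 9.44 Mb and green 5.01 Mb. The colour mix and the span lengths thus differ between the sets, and these values are not like for like. The 73 clusters without a peak held 27 regions at most, with a median of 11 regions and a median green share of 63.2%. The 253 with a peak had medians of 13 regions and 52.0% green. A cluster with fewer regions, or fewer red ones, has less room for a peak, so part of these differences is built in.

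Among members a Notch1 peak was found at 1.29% of green regions (0.90 to 1.79) and 22.1% of red regions (20.4 to 23.8). The shares over all autosomal regions were 1.12% of green and 24.8% of red. Outside the dense clusters they were 1.05% of green (0.82 to 1.32) and 25.4% of red (24.6 to 26.2). The share was higher in wider red members. It was 12.8% below 600 bp, 16.1% from 600 to 875 bp, 27.5% from 900 to 1475 bp and 47.0% (41.4 to 52.7) at 1500 bp or more. The other red regions of the same widths had 15.2%, 19.5%, 34.1% and 52.3% (49.4 to 55.1). Red members were thus below other red regions in all 4 width classes. The intervals overlapped in all but the class from 900 to 1475 bp. By chain length, the red share with a peak was 25.8% for isolated regions and 27.8% in chains of 2 to 3. It was 22.8% (21.0 to 24.7) in chains of 4 to 5 and 23.0% (21.1 to 25.0) in chains of 6 to 9. Dense clusters of 10 to 14, 15 to 19 and 20 or more regions had 22.4%, 22.8% and 20.5%. The lower share was thus not particular to dense clusters. Among green members no width class went above 3.74%. Overlap needs only 1 bp, so a wider region has more room to meet a peak. Part of the rise with width follows from that.

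**Figure D4:**
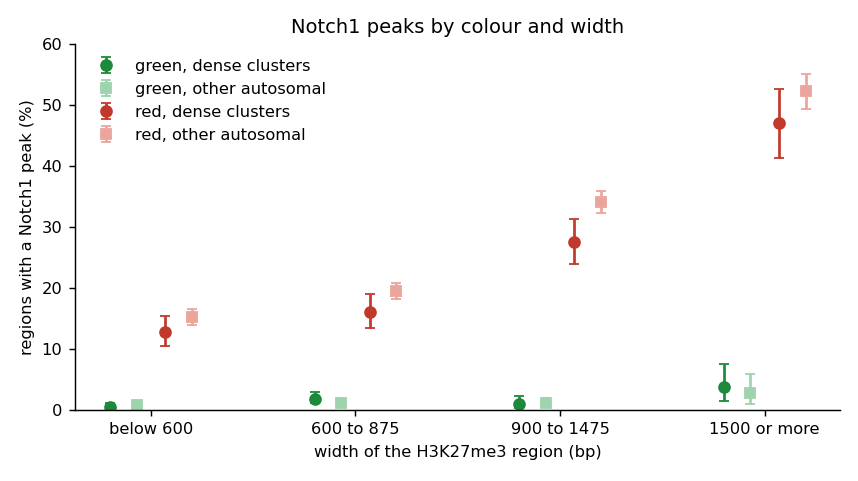
Percent of H3K27me3 regions that share 1 bp or more with a Notch1 peak, by width in bp and colour, with 95% Clopper-Pearson intervals; circles are dense clusters and squares other autosomal regions. Red members run from 12.8% in the narrowest class to 47.0% in the widest, and green members stay at or below 3.74%.

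Red members with a Notch1 peak were wider than those without, and their neighbours were green about as often. Their median width was 1025 bp (quartiles 675 and 1600 bp), against 725 bp (525 and 975 bp) for red members without a peak. This is the relation of width and overlap given above, seen from the other side, and is partly built in. The neighbours of red members with a peak were counted next. Of these neighbours in the cluster 43.5% (40.4 to 46.7) were green, against 43.9% (42.3 to 45.6) for the neighbours of red members without a peak. Around the peak centres in dense clusters, red regions covered 79.2% of the centres and green regions 0.163%, which is 1 of 614. At 500 bp on either side red stood at 51.0% and 48.4%, and green at 3.58% and 4.72%. At 2000 bp on either side red was at 24.1% and 26.4% and green at 19.2% and 19.4%. Green was therefore scarcest within about 500 bp of a Notch1 peak centre. At 1000 bp it was at 10.1% on the side of lower coordinates and 11.7% on the other, so the dip reached beyond 500 bp. From 2000 to 5000 bp green lay between 17.9% and 20.8% on the side of lower coordinates. On the side of higher coordinates it lay between 14.7% and 20.0%. Since 2 regions of the list never overlap, a centre covered by red cannot be covered by green, and part of the dip in green follows from that.

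**Figure D5:**
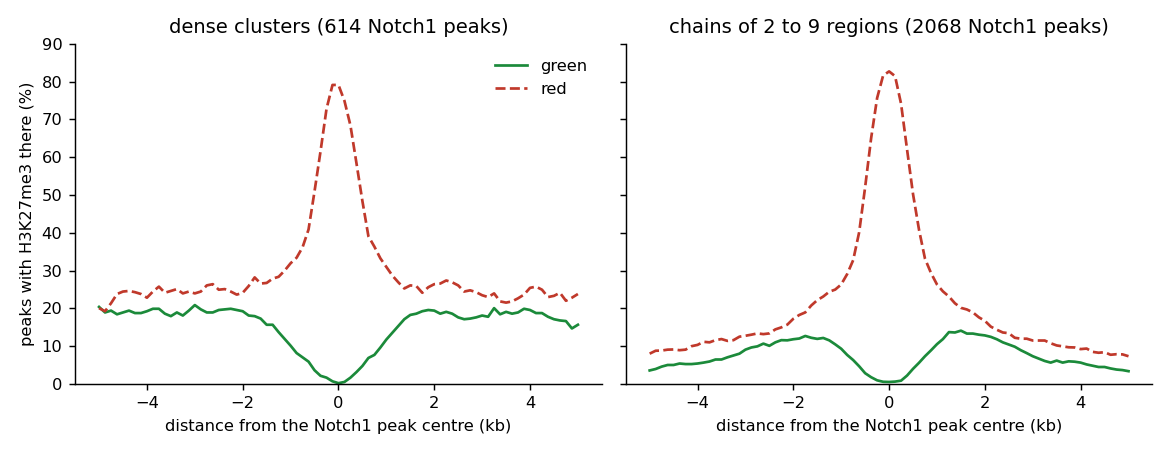
Percent of Notch1 peaks with a green (solid) or red (dashed) H3K27me3 region at each distance in kb from the peak centre, for dense clusters (left) and chains of 2 to 9 regions (right). In dense clusters red is at 79.2% at the centre and green at 0.163%, and at 2 kb on either side red is at 24.1% and 26.4% and green at 19.2% and 19.4%.

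Clusters differed in how many Notch1 peaks they held, along with their colour. The 35 clusters below 25% green held 112 peaks per megabase of span, and those from 25 to below 50% green held 80.3. The 153 clusters from 50 to below 75% green held 59.7 and the 41 with 75% or more held 28.7. Since 532 of the 614 peaks met red regions only, a lower density in greener clusters is largely built in. The share of their red regions with a peak did not follow this order, at 21.3% (17.5 to 25.6), 20.3% (17.7 to 23.1), 24.8% (22.1 to 27.6) and 16.1% (10.0 to 24.0). The clusters with most peaks were the second largest, on chromosome 6, with 15, and the sixth, on chromosome 19, with 10. Another 2 clusters tied with 8 peaks, the third largest, on chromosome 2, and chr19:6485051-6542825, where 2 regions were green and 23 red. On chromosome 6, 12 peaks met red regions only, 1 met both colours and 2 lay in gaps. On chromosome 19, 9 met red only and 1 met both, and on chromosome 2 all 8 met red only. The largest cluster of all, on chromosome 15, held 4 peaks, of which 1 met green, 1 met red and 2 lay in gaps.

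H3K4me3 regions were less frequent at members than at other H3K27me3 regions. Over all autosomal regions 8.24% met an H3K4me3 region of either colour. Among members 255 did, 5.03% (4.45 to 5.67), against 9.17% (8.75 to 9.61) of the other regions. The gap was seen in both colours. Green members met H3K4me3 in 1.59% of cases (1.15 to 2.13) and other green regions in 2.57% (2.21 to 2.97). Red members did so in 8.99% (7.86 to 10.2) and other red regions in 13.5% (12.9 to 14.2). Most meetings were of red with red, at 201 of the 212 red members that met H3K4me3. The same held outside dense clusters, at 1274 of 1427 other red regions that met H3K4me3. Over all autosomal red regions it was 1475 of 1639. Green members also met red H3K4me3 regions more often, in 28 cases against 15 for green ones, of 43 that met any. Other green regions did so in 132 cases against 50, of 179. The excess of red H3K4me3 was thus not particular to red H3K27me3 regions. Among red members of 1500 bp or more 18.4% met H3K4me3, and among other red regions of that width 25.5%.

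Of the 277 H3K4me3 regions within the cluster spans, 240 were red and 37 green, and 169 of 326 clusters (51.8%) held at least 1. The whole autosomal H3K4me3 list holds 11075 red and 10052 green regions. Within chains of 2 to 9 H3K27me3 regions 1042 were red and 162 green, so the excess of red was not particular to dense clusters. Of the red ones 190 (79.2%, 73.5 to 84.1) met red H3K27me3 regions only and 25 lay in gaps, and in chains of 2 to 9 regions 79.9% met red only. Of the green ones 12 met green H3K27me3 only, 12 met red only (32.4%, 18.0 to 49.8) and 11 lay in gaps, and in chains of 2 to 9 regions 60.5% (52.5 to 68.1) of 162 met red only. Red members with a Notch1 peak met H3K4me3 in 15.4% of cases (12.4 to 18.7), and red members without a peak in 7.18% (6.04 to 8.46). Other red regions had 19.8% (18.3 to 21.4) with a peak and 11.4% (10.7 to 12.1) without. The difference was thus not particular to members. Taking only red members of 900 bp or more evens out part of the difference in width. Their shares were 17.6% (13.5 to 22.2) with a peak and 12.0% (9.48 to 14.8) without, and the intervals overlapped. Other red regions of that width had 22.4% (20.3 to 24.7) and 20.0% (18.3 to 21.7), and these intervals overlapped too.

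The cluster with most H3K4me3 regions was nearly all red. It lay at chr1:90123826-90163425, with 1 green and 16 red H3K27me3 regions over 39.6 kb, and held 18 red and 3 green H3K4me3 regions and 3 Notch1 peaks. The second largest cluster, on chromosome 6, came next with 7 red H3K4me3 regions. Another cluster, chr1:75472001-75507075, followed with 5 red H3K4me3 regions and 6 Notch1 peaks among 1 green and 14 red H3K27me3 regions. By contrast the largest cluster, on chromosome 15, held no H3K4me3 region in 246 kb. Per megabase of span, H3K4me3 regions numbered 68.8 in the clusters below 25% green, of which the chromosome 1 cluster alone gave 21 of 69, and 16.6 in those with 75% or more. Since 190 of the 240 red H3K4me3 regions met red H3K27me3 regions only, part of this difference is built in.

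H3K9ac rarely met H3K27me3 regions, in dense clusters and elsewhere. The deposited H3K9ac list holds regions on 11 autosomes only, and on these 0.182% of all H3K27me3 regions met it. Among 3432 members there, 2 did, 0.0583% (0.0071 to 0.210), against 25 of 11420 other regions, 0.219% (0.142 to 0.323). The intervals overlapped, and that of members includes the 0.182% of all regions. Clusters on autosomes missing from the H3K9ac list could not hold any of its regions. Only 1 cluster held H3K9ac regions at all, the one on chromosome 1 with most H3K4me3 regions, with a green region at chr1:90154376-90154950 and a red one at chr1:90159451-90160050. Both met red H3K27me3 regions. The only member to meet Notch1, H3K4me3 and H3K9ac together lay there, at chr1:90151676-90154575. It was red, 2900 bp wide, and held 2 Notch1 peaks, 3 red H3K4me3 regions and 1 H3K9ac region.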

How the data were processed

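ChIP-seq reads were single-end, 36 bp long and 34 bp after processing, from cells fixed in 1% formaldehyde for 10 min, per the labels' protocols. The submitters' processing notes name BWA and the builds NCBIM37 and mm9; for the aligner version, the region caller, its thresholds, the use of inputs and the pooling of replicates the entry is "not given in the sources used here". Every row has the deposited BED score 1000, which carries no measurement, so only positions (written with 1-based starts) and colours (green, RGB 0,200,0; red, 200,0,0) were used. All positions lie on a 25 bp grid. How the caller's grid, thresholds and merging shape the widths and gaps is unknown.

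Regions were chained at gaps of 5 kb or less. Overlap meant 1 bp or more shared. Python 3.11.15, numpy 2.4.6 and scipy 1.17.1 were used, and chaining and overlap were checked on simulated lists. Members and lists were chosen with earlier results of these data known. Clusters named are the 10 with most regions, the 3 longest of each single colour, the 3 most evenly mixed, and the 3 with most Notch1 peaks or H3K4me3 regions, with ties broken by number of regions, then chromosome and start; regions named are the 5 widest of each colour and those meeting all 3 other lists. A naming of genes planned for a matching annotation was not made, since the gene table is on GRCm38.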

Additional observations from a re-analysis of the deposited data

How the results depend on the processing

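No paired analysis was possible because values of single libraries are not part of the files, and for that reason no replicate was left out. Of 60 recomputed values 42 stayed within the 95% interval of the reported share or median, or within 1.5 times the reported count, and 18 did not; the cause was not tested beyond what the settings themselves change. By construction, linking at 2.5 kb left 3166 members, and asking for 15 or more regions left 123 clusters with 2729 members. The green share of members was 50.8% with links of 10 kb, 55.4% at 15 or more regions, 50.0% for members at least 700 bp wide, the median of the list, 55.3% at 500 bp or wider and 51.7% with each cluster counted once. It was above that of the other regions under all 8 settings that give both values. The share of neighbours of 1 colour was 62.3% at or above the median width, 55.9% at gaps of 500 bp or more, 62.3% without gaps of 1000 to 1225 bp and 62.2% at 500 bp or wider. With 50% of a member covered, Notch1 met 0.148% of green and 13.9% of red members, and H3K4me3 2.68% of members. At or above the median width, Notch1 met 28.4% of red members and H3K4me3 6.82% of members, and at 15 or more regions H3K4me3 met 4.43%. Red members stayed below other red regions for Notch1, and members below others for H3K4me3, under all 8 settings that give both values. In each of these settings the other regions include isolated regions and short chains. With 5 kb links, Notch1 met 22.8% of red regions in chains of 4 to 5 and 23.0% in chains of 6 to 9. Both are near the 22.1% of red members. H3K4me3 was not split by chain length. Counting each cluster once, leaving out the 4 largest clusters, leaving out gaps of 1000 to 1225 bp and the 500 bp minimum were chosen after seeing the data. Depth is unknown, so a place without a listed region is not shown to lack a change.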
